A study of Homo sapiens with 4 samples.

Results

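DNA replication and repair genes carried 107 of the 9466 listed m6A peaks, on 71 of the 6763 genes of the authors' deposited table. They were chosen by gene name alone, from families such as FANC, RAD, MCM, ORC, ERCC, XRCC, SMC and POL, and names with a hyphen were left out. Names can mislead, and 3 of the 71 are no repair genes proper: SMC3P1 is a pseudogene of SMC3, MCM3AP encodes an mRNA export factor, and SLX4IP encodes a partner of the SLX4 scaffold. In the gene ontology column of the table, 49 of the 71 (69.0%) carried the term DNA repair, against 178 of all 6763 genes (2.63%).

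The cells were BEAS-2B, a line derived from normal human bronchial epithelium and made immortal. One arm received a METTL16-overexpressing plasmid and the other an empty plasmid. From each arm came 1 input library and 1 library of RNA pulled down by an antibody against N6-methyladenosine (m6A), so 4 libraries formed 4 groups of 1 without replicates. No difference below has a replicate check, the sequencing depth is unknown, and METTL16 itself has 0 lines there, and its level was not analysed here. Of 10 epithelial marker genes, 3 were listed: KRT18 had 59.0 FPKM with METTL16 plasmid and 59.6 with empty plasmid, KRT8 had 54.2 FPKM with METTL16 plasmid and 46.1 with empty plasmid, and OCLN had 3.89 FPKM with METTL16 plasmid and 3.33 with empty plasmid. Of 3 mesenchymal markers, 1 was listed: VIM had 510.03 FPKM with METTL16 plasmid and 498.96 with empty plasmid. None of 3 haematopoietic and 2 endothelial markers was listed. Only genes with a listed m6A peak appear, so a missing marker says nothing about its level.

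METTL16 is an RNA methyltransferase whose known substrates are the U6 small nuclear RNA and hairpins in the MAT2A transcript. Most m6A of messenger RNA is placed by another enzyme complex, METTL3 with METTL14, and reader proteins bound to it affect decay, splicing and translation of the transcript. DNA replication starts where the origin recognition complex (ORC) loads the MCM helicase. DNA polymerases, their clamp loader RFC and the single-strand binding protein RPA then copy the template. Repair pathways deal with different lesions: mismatch repair with copying errors, nucleotide excision repair with bulky adducts, the Fanconi anaemia pathway with crosslinks, and homologous recombination or end joining with double-strand breaks.

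A peak is called differential where the authors marked it, which means p under 0.05 and a change of at least 2-fold. All log2 fold changes of m6A below are the authors', with values above 0 higher with the METTL16 plasmid. The sources read here do not say how they were scaled between libraries or whether they are relative to input. Every listed peak has a p under 0.05 from a comparison of single libraries, so peaks without that support lie outside all counts. In bulk RNA, a change in every cell and a change in some cells cannot be told apart.

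Of the 107 peaks, 53 were differential (49.5%, exact 95% interval 39.7 to 59.4), beside 43.7% of all listed peaks. Lower in the overexpression arm were 33 of the 107, beside 27.2% of all listed peaks. Higher were 20 of the 107, beside 16.5% of all listed peaks. Lower peaks made up 62.3% of the differential ones, as they did over the whole table. Centred on the median of all listed peaks, 22 were higher and 21 lower, so the excess of lower peaks depends on the scaling between libraries. By role, that centring left 3 of 4 lower calls of translesion polymerase genes and 3 of 5 of checkpoint genes, and LIG1, SMC2 and TOP3A lost theirs. The median log2 fold change was -0.40 (-0.62 to -0.28), near the -0.38 of all listed peaks. These shares and medians lie near those of the table as a whole. With an adjusted p under 0.05 as well, 12 of the 107 remained differential, beside 7.84% of all listed peaks.

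By gene, 38 of the 71 held a differential peak, 17 a higher one and 26 a lower one, and 5 held both. That is 53.5% of these genes beside 50.5% of all listed genes, with 20.9% of all listed genes holding a higher and 33.4% a lower one. Both directions were held by 7.04% of these genes, beside 3.81% of all listed genes. Expression went with the share of differential peaks, as over the whole table. Among genes with a mean input level under 3.12 FPKM, 70.4% of the 27 member peaks were differential, beside 69.8% of all peaks there. Between 3.12 and 9.34 FPKM it was 50.0% of 54, beside 40.6%, and above 9.34 FPKM 26.9% of 26, beside 18.5%. These limits split all listed peaks that have an input FPKM into 3 equal parts of 3077 peaks.

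**Figure D1:**
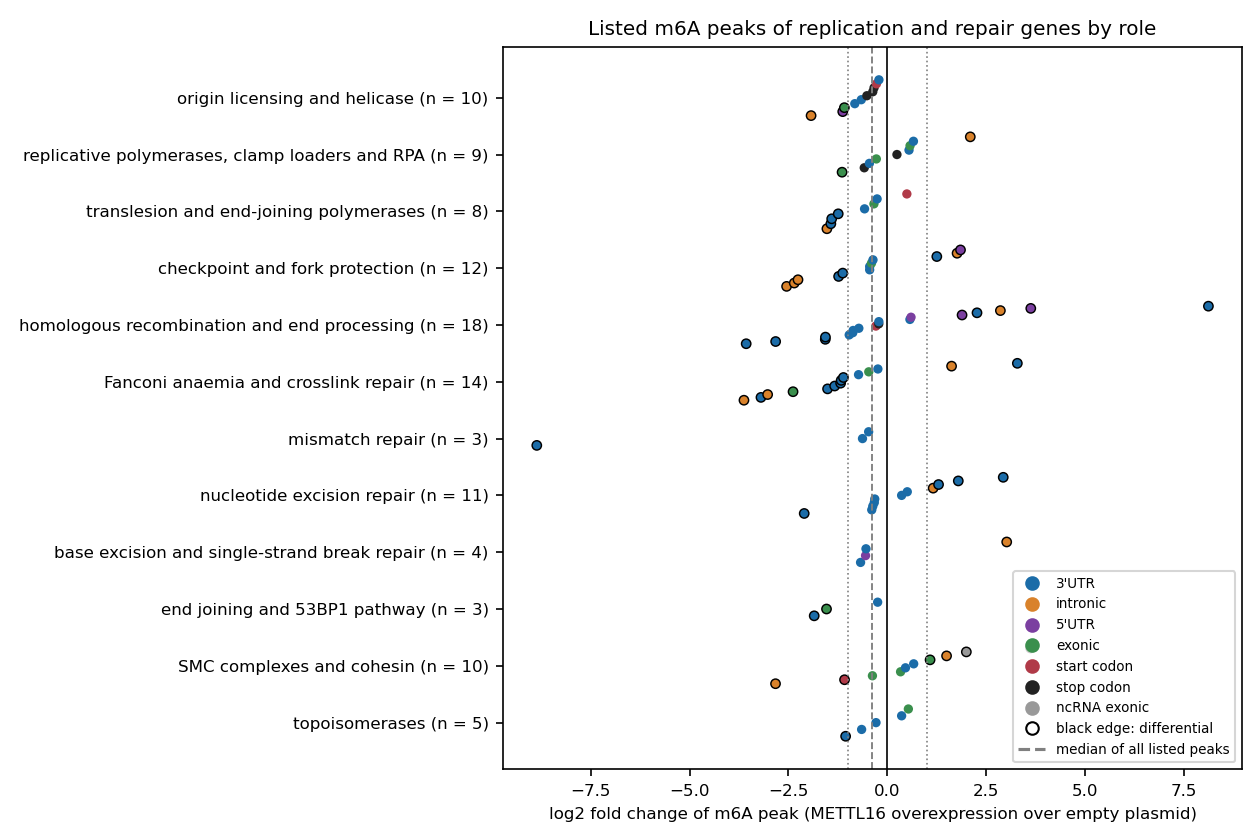
Each point is 1 listed peak of a replication or repair gene, placed by its log2 fold change (METTL16 overexpression over empty plasmid) and grouped by role. Colour gives the region label, a black edge marks a differential peak, dotted lines mark 2-fold and the dashed line marks the median of all listed peaks. All 10 peaks of origin licensing and helicase genes lie below 0, and the ends of the range are RAD51D at 8.13 and MLH3 at -8.87.

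Origin licensing and helicase genes had lower values at all of their listed peaks. The 10 peaks lay on 8 genes, with a median log2 fold change of -0.58, and 3 of them were differential, beside 43.7% of all listed peaks. Centred on the median of all listed peaks, 1 of these 3 calls was left, that of the ORC3 intronic peak. ORC2, a core subunit of the origin recognition complex, had an exonic peak (chromosome 2, 200931401 to 200933928) at -1.08 with an adjusted p of 0.022 in the authors' deposited table. ORC3, another subunit, had a peak labelled 5'UTR at -1.12 in the authors' deposited table, 61.15% along the gene. Its intronic peak (on chromosome 6, 87657066-87657216) was at -1.92 in the authors' deposited table. Input of ORC3 was 12.3 FPKM with METTL16 plasmid and 13.7 with empty plasmid. MCM8, a helicase of recombination, had the smallest p of any member in the authors' deposited table, 3.61e-08 (adjusted p 7.27e-06), at a stop codon peak of -0.51. That is 1.43-fold, under the 2-fold threshold, and its second peak in the 3'UTR stood at -0.65 per the authors' deposited table. MCM9, the partner of MCM8, had -0.82 at a peak that spans 81514 genomic bases with introns in the authors' deposited table. MCM7 and MCM5, subunits of the replicative helicase, had stop codon peaks at -0.33 and at -0.36 per the authors' deposited table. Together with ORC6 at -0.21 and MCM3AP at -0.27, those values lie between the median of all peaks and 0, so that their direction depends on the scaling between libraries.

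Replicative polymerase, clamp loader and RPA genes were divided, with 5 of 9 peaks above 0. Differential were 2 of the 9, beside 43.7% of all listed peaks. RFC3, a subunit of the clamp loader, had the highest value of the group, 2.10, at an intronic peak (on chromosome 13, 33847439-33847864) in the authors' deposited table. LIG1, the ligase that joins Okazaki fragments, had the lowest, -1.14, at a peak in exons. RPA1, the large subunit of the single-strand binding protein, had an exonic peak at 0.58 with an adjusted p of 0.0074 in the authors' deposited table. Its stop codon peak, 49 bases further on, stood at 0.25 per the authors' deposited table. POLA1, the catalytic subunit of the primase-bound polymerase, had 0.67, and POLE4, an accessory subunit of polymerase epsilon, had 0.55 in the authors' deposited table. POLE itself, the leading-strand polymerase, had -0.45 at its 3'UTR (adjusted p 0.046), POLD4, a small subunit of polymerase delta, -0.58 and RFC1 -0.27 in the authors' deposited table.

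The translesion polymerase genes POLH and POLK, whose products copy past damaged bases, held 8 peaks, of which 4 were differential and all 4 lower. Of all listed peaks, 43.7% were differential and 27.2% differential and lower. POLH had 3 peaks along its 3'UTR on chromosome 6, starting at 43615205, 43617730 and 43618780, and the authors' deposited table gave them -1.24, -1.40 and -1.42. These 3 values lie close together, and their adjusted p-values were 0.012, 0.20 and 0.062 in that order per the authors' deposited table. Centred on the median of all listed peaks, the POLH peaks at -1.40 and -1.42 kept their differential call. The peak at -1.24, which alone of the POLH peaks had an adjusted p under 0.05, lost its call. The other POLH peak, in exons, stood at -0.33 in the authors' deposited table. Input of POLH was 7.57 FPKM with METTL16 plasmid and 6.64 with empty plasmid. POLK had an intronic peak (on chromosome 5, 75582783-75582933) at -1.52 with an adjusted p of 0.0021 in the authors' deposited table. Its 3'UTR peaks stood at -0.57 and -0.25 and its start codon peak at 0.50 per the authors' deposited table. Input of POLK was 9.58 FPKM with METTL16 plasmid and 8.73 with empty plasmid.

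Checkpoint genes had peaks in both directions, often on the same transcript. ATM, the kinase that responds to double-strand breaks, held 5 listed peaks. Its 5'UTR peak (chromosome 11, 108225218 to 108225443) was at 1.86 with an adjusted p of 0.038 in the authors' deposited table. An intronic peak (108242331 to 108242856) was at -2.35 with an adjusted p of 0.031 per the authors' deposited table. Between them lay a peak labelled 3'UTR at -1.23, although it stands 7.34% along the gene. At the far end of the gene, the authors' deposited table gave -0.44 and 1.26 for a pair of 3'UTR peaks that lie 1499 bases apart. Input of ATM was 3.71 FPKM with METTL16 plasmid and 3.89 with empty plasmid. ATR, the kinase of stalled forks, had intronic peaks at 1.77 and -2.26 and an exonic peak at -0.40 in the authors' deposited table. RAD9B, a paralogue of the checkpoint clamp subunit RAD9A, had -2.54 at an intronic peak in the authors' deposited table. Its input level was only 0.070 FPKM with METTL16 plasmid and 0.074 with empty plasmid. RAD18, the ubiquitin ligase that starts translesion synthesis, had -1.12 at a peak that spans 101886 bases and reaches beyond the RefSeq gene per the authors' deposited table. CLSPN, the adaptor claspin, and RAD9A had -0.36 and -0.44 in the authors' deposited table and were not differential.

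Homologous recombination genes held 18 peaks, of which 5 were differential and higher and 4 differential and lower. Over all listed peaks these shares were 16.5% and 27.2%. The higher ones were on RAD51D, XRCC2, XRCC3 and BRCA1. RAD51D (chromosome 17, 35094995 to 35095095) had 8.13 at a 3'UTR peak of 101 bases in the authors' deposited table, with p = 0.00060 and no adjusted p. Its other peak, also labelled 3'UTR, was at -0.72 per the authors' deposited table, and the 2 peaks differ by 8.85 on the log2 scale. Input of RAD51D was 1.22 FPKM with METTL16 plasmid and 1.43 with empty plasmid. XRCC3, a gene needed for recombination at strand breaks, had higher values at both listed peaks of the authors' deposited table, 2.87 in an intron (chromosome 14, 103708271 to 103708396, adjusted p 0.025) and 2.27 at a 3'UTR label. XRCC2, also needed for recombination, had 1.90 at a peak labelled 5'UTR that spans 15573 bases and -0.21 at its stop codon per the authors' deposited table. RAD51C, a further recombination gene, had 0.60 at its 5'UTR in the authors' deposited table and was not differential.

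BRCA1, which brings recombination factors to resected breaks, had peaks in opposite directions. The peak labelled 5'UTR (chromosome 17, 43121669 to 43122460), 38.3% along the gene, was at 3.64 in the authors' deposited table without an adjusted p. The peak labelled 3'UTR (43067462 to 43070510), 80.4% along the gene, was at -1.56. BRCA2, a mediator of recombination, had 1 peak at the 3' end of its transcript at -0.86, under 2-fold. MRE11, the nuclease of the MRE11-RAD50-NBN complex, had a 3'UTR peak (on chromosome 11, 94416869-94417269) at -3.57 with an adjusted p of 0.025 in the authors' deposited table. Its partners were under 2-fold: RAD50 had -0.96 and -0.21 at peaks whose spans overlap, and NBN had 0.58 in the authors' deposited table. WRN, the helicase mutated in Werner syndrome, had 3'UTR peaks at -0.87 and -2.82, and BLM, a related helicase, had a start codon peak at -0.28 in the authors' deposited table. RAD54L2, a RAD54-like helicase gene, had -1.56 with an adjusted p of 0.016 at a 3'UTR label per the authors' deposited table. Most of that peak lies beyond the end of the RefSeq gene.

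Fanconi anaemia genes, with SLX4IP, held 14 peaks on 8 genes. Differential were 11 of them, 9 lower and 2 higher, beside 43.7% of all listed peaks. FANCB, FANCC, FANCE and FANCL had a mean input under 3.12 FPKM, where 69.8% of all listed peaks were differential. FANCA, FANCG, FANCI and SLX4IP lay between 3.12 and 9.34 FPKM, where that share was 40.6%. Centred on the median of all listed peaks, 5 were lower and 2 higher. An adjusted p under 0.05 was given for 2 of the 14, 1 higher and 1 lower, and 3 had none. Among the 6 of these genes with at least 1 FPKM in either input, the median level was 3.63 FPKM, and for all 66 such replication and repair genes it was higher. FANCL, the ubiquitin ligase of the pathway, had 0.788 FPKM with METTL16 plasmid and 0.998 with empty plasmid, and its 4 peaks stood at -3.19, -3.02, 1.63 and -2.38 in the authors' deposited table. FANCC, a core complex subunit, had 0.79 FPKM with METTL16 plasmid and 0.89 with empty plasmid, and neighbouring 3'UTR peaks at -1.33 and -1.16, the second with an adjusted p of 0.00086 in the authors' deposited table. FANCG had -3.62 at an intronic peak without an adjusted p, and FANCB had -1.51 at a 3'UTR label, in the authors' deposited table. FANCA went the other way at its 5' end. There a peak labelled 3'UTR (chromosome 16, 89814252 to 89816061), which lies 1.88% along the gene, had 3.29 with an adjusted p of 0.0026 in the authors' deposited table. The other 2 FANCA peaks stood at -1.11 and -0.72 per the authors' deposited table. FANCI and FANCE had -0.23 and -0.46 in the authors' deposited table and were not differential.

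Nucleotide excision repair genes held 11 peaks, of which 4 were differential and higher and 1 differential and lower, beside 16.5% and 27.2% of all listed peaks. The 4 higher peaks lay on 3 genes, and the lower one was the only peak of the 11 with an adjusted p under 0.05. ERCC4, the XPF nuclease subunit, had a pair of 3'UTR peaks 149 bases apart (chromosome 16, starting at 13949948 and 13950223) at 2.94, without an adjusted p, and 1.80 in the authors' deposited table. Its input level was 1.07 FPKM with METTL16 plasmid and 1.19 with empty plasmid. ERCC1, the partner of XPF, had 1.16 at an intronic peak, and ERCC5, the XPG nuclease, had 1.30 at a 3'UTR label in the authors' deposited table. Input of ERCC5 was 1.37 FPKM with METTL16 plasmid and 2.38 with empty plasmid. The readthrough gene BIVM-ERCC5 had 3.04 FPKM with METTL16 plasmid and 1.40 with empty plasmid. Reads of exons shared with it can be assigned to either gene, and their part in the ERCC5 peak was not tested. ERCC3, a helicase of the transcription factor TFIIH, was the exception, with -2.10 at a peak of 151 bases (chromosome 2, 127290194 to 127290344, adjusted p 0.0498). The adjoining ERCC3 peak, 249 bases away, stood at 0.37 in the authors' deposited table. ERCC2, the other helicase of TFIIH, had -0.36, ERCC6L2 had 0.51, and RAD23B, a partner of the damage sensor XPC, had -0.31 in the authors' deposited table.

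In mismatch repair, MLH3 had the lowest value of the whole table. This MutL subunit gene had -8.87 at a 3'UTR peak of 226 bases (chromosome 14, 75014643 to 75014868) in the authors' deposited table, without an adjusted p, at 2.25 FPKM with METTL16 plasmid and 2.32 with empty plasmid. MSH6, which recognises single mismatches, had -0.62 in the authors' deposited table.

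Single-strand break and end-joining genes held 7 peaks, of which 1 was differential and higher and 2 differential and lower. The shares over all listed peaks were 16.5% and 27.2%. PARP1, the sensor of strand breaks, had 3.03, without an adjusted p, at an intronic peak (on chromosome 1, 226371501-226371776) between 3'UTR-labelled peaks at -0.54 and at -0.67 per the authors' deposited table. LIG3, the ligase that works with XRCC1, had a 5'UTR peak at -0.55 with an adjusted p of 0.024 per the authors' deposited table. RIF1, which protects break ends together with 53BP1, had -1.85, and XRCC4, the scaffold of ligase IV, had -1.53 in the authors' deposited table. TP53BP1, the gene of 53BP1, had -0.24 and is among the peaks whose sign depends on scaling.

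SMC genes encode ring proteins of cohesin, condensin and the SMC5/6 complex. Their 8 peaks were divided, with 5 above 0 and 3 below. Differential were 2 higher and 2 lower ones, beside 16.5% and 27.2% of all listed peaks. With the cohesin gene RAD21 and the pseudogene SMC3P1, 7 of 10 peaks were above 0. The cohesin subunit SMC1A had an exonic peak of 101 bases at 1.09 with an adjusted p of 0.032 in the authors' deposited table, and its other peak stood at 0.34. RAD21, the cohesin subunit that closes the ring, had 1.504 at an intronic peak, and SMC3 had 0.67 at its 3'UTR and -0.37 in exons in the authors' deposited table. SMC5 and SMC6 encode the 2 arms of one complex, and their intronic peaks had opposite values, 3.63 and -2.82, in the authors' deposited table. Neither of these peaks has an adjusted p there. SMC2, a condensin subunit, had -1.08 at its start codon, and SMC4, its partner, had 0.46 at its 3'UTR in the authors' deposited table. The pseudogene SMC3P1 had 2.005 at 0.53 FPKM with METTL16 plasmid and 0.39 with empty plasmid, and reads of SMC3 and SMC3P1 can be assigned to either.

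Topoisomerase genes had 1 differential peak of 5, beside 43.7% of all listed peaks. TOP3A, which unlinks recombination intermediates with BLM, had -1.05 at the end of its 3'UTR and -0.28 upstream in the authors' deposited table. TOP2A, the mitotic decatenase, had 0.54 in exons with an adjusted p of 0.023 in the authors' deposited table. TOP1, which relaxes DNA ahead of the fork, had 0.37 and -0.65 at neighbouring 3'UTR peaks.

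Region labels were compared without the label for exons of noncoding RNAs, since choosing protein-coding families by name leaves almost none of it: 1 of 107 peaks, on SMC3P1. Of the other 106 peaks the 3'UTR label held 57.5% (47.6 to 67.1), against 47.99% of all such peaks, which lies inside that interval. Introns held 15.1% (8.88 to 23.4) against 8.27%, and stop codons 5.66% (2.11 to 11.9) against 16.2%. The intervals allow for counting error alone, and peaks of 1 gene share their transcript. All 16 intronic peaks were differential, 8 higher and 8 lower, beside 85.7% of all intronic peaks. None of the 6 stop codon peaks was differential, beside 12.2% of all stop codon peaks. At 3'UTR labels 26 of 61 peaks were differential (42.6%), beside 39.5% of all 3'UTR peaks. Of these 26, 19 were lower and 7 higher, and over all listed genes 65.1% of the differential 3'UTR peaks were lower. The 4 differential 5'UTR peaks were higher in ATM, BRCA1 and XRCC2 and lower in ORC3, and over all listed genes 67.4% of such peaks were lower.

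**Figure D2:**
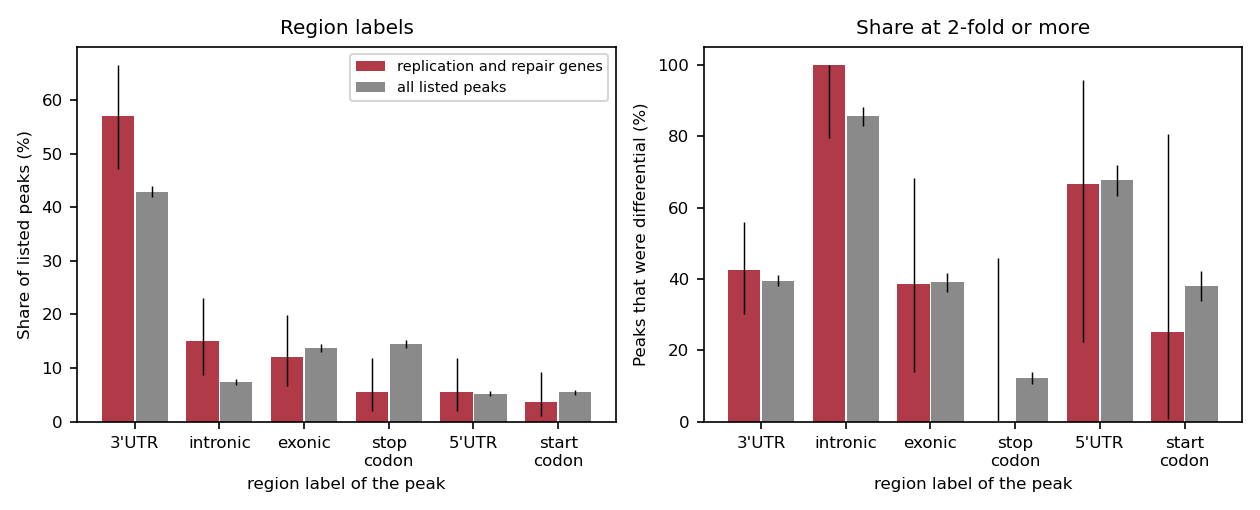
Bars give percentages for replication and repair genes (red) and for all listed peaks (grey) by region label, with exact 95% intervals that cover counting only. Left, the share of peaks with each label, noncoding exons included: the 3'UTR holds 57.0% against 42.9%. Right, the share of peaks with that label that were differential: 100% against 85.7% in introns.

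A 3'UTR label did not always place a peak at the 3' end of the gene. Of 42 3'UTR-labelled peaks with a span of at most 2000 bases whose middle fell inside the RefSeq gene, 27 lay in the last 10% of the gene span and 15 lay before it (35.7%, against 29.9% over all genes). The 15 earlier peaks, which include those of FANCA, FANCB, ERCC3 and ERCC5, were differential in 60.0% of cases, 4 higher and 5 lower, beside 50.6% of all such peaks. The 27 peaks in the last 10% were differential in 40.7%, 3 higher and 8 lower, beside 40.6% of all such peaks.

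**Figure D3:**
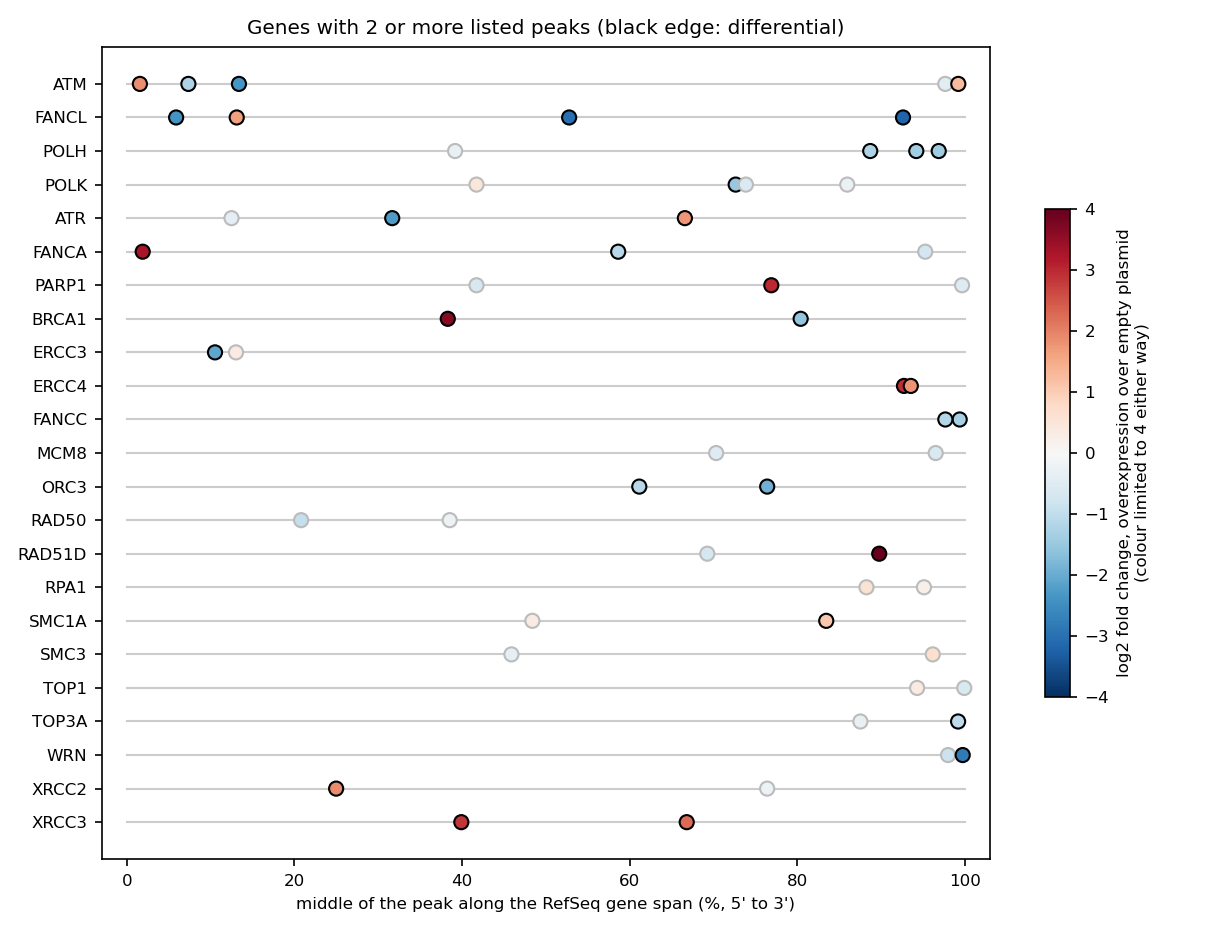
Each row is 1 gene with 2 or more listed peaks, and each point is the middle of a peak along the RefSeq gene span in percent, 5' to 3', which for peaks that span introns need not be a methylated base. Colour gives the log2 fold change (overexpression over empty plasmid), limited to 4 either way, and a black edge marks a differential peak. ATM, FANCL and BRCA1 show red and blue points on 1 gene, while POLH shows 3 blue ones near its 3' end.

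Peaks of 1 transcript often disagreed in direction. Of the 24 genes with 2 or more listed peaks, 12 held peaks above and below 0 (50.0%, against 38.5% of the 1928 such genes in the table). In 8 all peaks were below 0, as in POLH and WRN, and in 4 all were above 0, namely ERCC4, RPA1, SMC1A and XRCC3. Differential peaks of both directions occurred in ATM, ATR, BRCA1, FANCA and FANCL, 7.04% of the 71 genes beside 3.81% of all listed genes.

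Input transcript levels of replication and repair genes were slightly lower in the overexpression arm. Of the 71 genes, 66 had at least 1 FPKM (fragments scaled to transcript length and to library size) in either input, and 50 of these were lower and 16 higher, 75.8% lower against 57.9% of all 5467 such genes. The median change, as log2((FPKM + 1)/(FPKM + 1)), was -0.08 (-0.12 to -0.04), against -0.02 (-0.03 to -0.02) over all such genes. These intervals cover the spread over genes and not that between libraries, since each arm has 1 input library. At least 1.2-fold lower in FPKM were 6 of the 66, beside 7.70% of all genes, and 0 were at least 1.2-fold higher, beside 6.04%. In the authors' deposited table all members have an expression q-value of 1.

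The largest input difference was that of ERCC5, with 1.37 FPKM with METTL16 plasmid and 2.38 with empty plasmid (log2 change -0.51). The readthrough gene BIVM-ERCC5 went the other way, with 3.04 FPKM with METTL16 plasmid and 1.40 with empty plasmid. Reads of shared exons can be assigned to either gene, and the part of that in the ERCC5 value was not tested. Next came FANCG with 4.41 FPKM with METTL16 plasmid and 5.63 with empty plasmid, and MSH6 with 5.93 FPKM with METTL16 plasmid and 7.43 with empty plasmid. TOP2A had 26.4 FPKM with METTL16 plasmid and 31.9 with empty plasmid, and BRCA1 had 4.95 FPKM with METTL16 plasmid and 6.03 with empty plasmid. FANCE was the last of the 6, with 2.19 FPKM with METTL16 plasmid and 2.66 with empty plasmid. FANCL, at 0.788 FPKM with METTL16 plasmid and 0.998 with empty plasmid, was also over 1.2-fold lower but did not reach the FPKM minimum. For the 5 genes with the lowest change the authors' deposited table gave expression p-values from 0.26 for ERCC5 to 0.73 for TOP2A.

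At the other end POLH had 7.57 FPKM with METTL16 plasmid and 6.64 with empty plasmid, and TOP1 had 15.3 FPKM with METTL16 plasmid and 13.8 with empty plasmid. FANCB had 1.80 FPKM with METTL16 plasmid and 1.55 with empty plasmid. RAD9A had 3.37 FPKM with METTL16 plasmid and 3.005 with empty plasmid, and POLK had 9.58 FPKM with METTL16 plasmid and 8.73 with empty plasmid. Thus both translesion polymerase genes were among the 5 with the highest change at or above 1 FPKM. By role, all 8 genes of replicative polymerases, clamp loaders and RPA were lower, with changes from -0.22 for RPA1 (12.3 FPKM with METTL16 plasmid and 14.5 with empty plasmid) to -0.01 for RFC3. All 8 nucleotide excision repair genes and all 3 mismatch repair genes were lower too. Over all 5467 genes at that level, 57.9% were lower, with a median change of -0.02. POLD4, RFC1, RFC3, RAD23B and ERCC1 lie between that median and 0, so their direction depends on the scaling between libraries. Of the 7 licensing and helicase genes 6 were lower, with ORC6 the exception at 9.62 FPKM with METTL16 plasmid and 8.97 with empty plasmid. Of the 6 SMC genes 3 were lower and 3 higher, and RAD21 was higher.

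**Figure D4:**
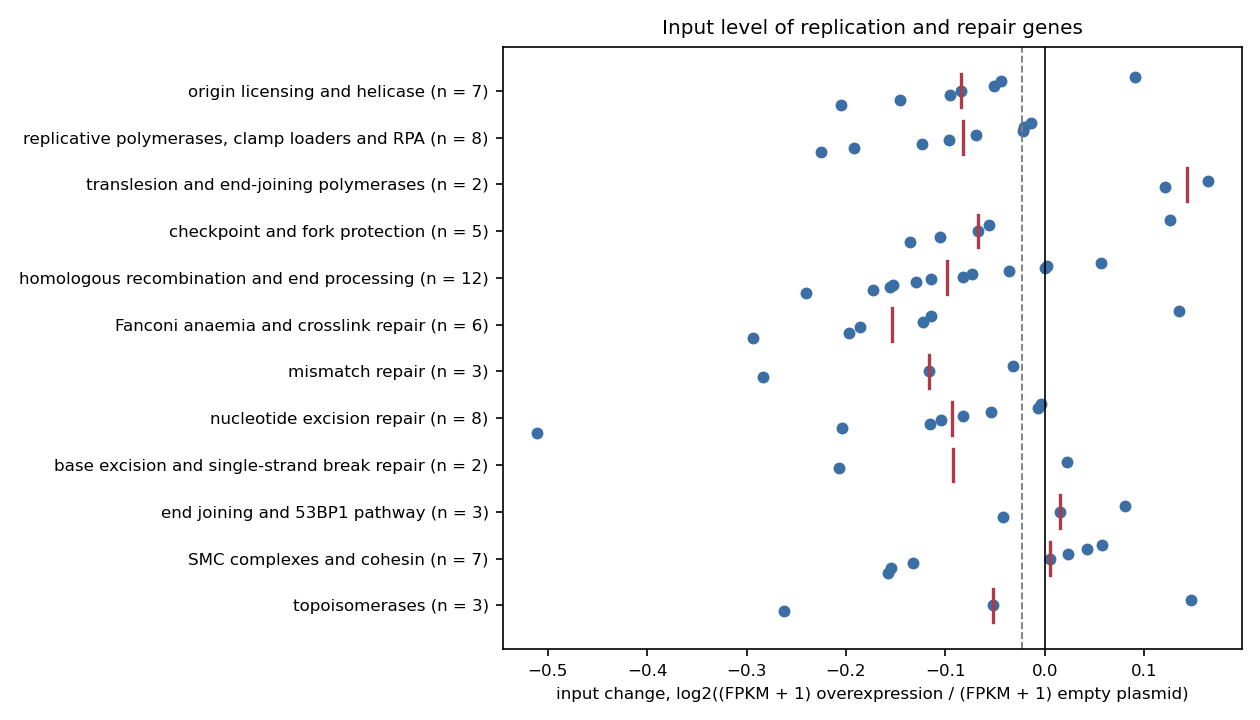
Each point is 1 gene with at least 1 FPKM in either input, placed by its input change on the log2(FPKM + 1) scale (METTL16 overexpression over empty plasmid) and grouped by role, with red bars at the median of each role. The dashed line is the median of all such genes, -0.02. All 8 genes of replicative polymerases, clamp loaders and RPA lie below 0, with POLD4, RFC1 and RFC3 between the dashed line and 0. POLH at 0.16 is the highest.

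Promoter letters are given as a description of these genes. Many replication genes are known targets of E2F, the transcription factor family of S phase entry. RefSeq windows (GRCh38.p14, 250 bases before to 50 after the start) were matched by symbol for 63 of the 71 genes. The letters TTTCCCGC, TTTGCCGC, TTTCGCGC or TTTGGCGC, on either strand, were found in windows of 16 of the 63 genes (25.4%). The share was 7.60% of the 4366 listed genes with a window and at least 1 FPKM in either input, and 3.99% of all 27305 genes with windows. The letters CCAAT were found for 49.2%, against 44.9% of those listed genes and 39.7% of all, and GGGCGG for 82.5%, against 79.5% and 48.3%, also on either strand. Matches of different letters may overlap. A match is a run of letters and not a bound site, and its part in any level here was not tested. Stretches of 60 bases from these windows are shown for 5 genes of the replication fork, picked for that role after their values were seen, from RefSeq, 5′ to 3′ on the strand of the gene, with the E2F-type letters in capitals.
POLE, chr12:132687343-132687402, minus strand: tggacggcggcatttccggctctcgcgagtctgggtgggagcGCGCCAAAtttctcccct
POLA1, chrX:24693755-24693814, plus strand: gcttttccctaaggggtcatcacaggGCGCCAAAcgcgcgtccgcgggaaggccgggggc
LIG1, chr19:48170425-48170484, minus strand: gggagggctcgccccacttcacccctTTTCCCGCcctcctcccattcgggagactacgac
MCM7, chr7:100101398-100101457, minus strand: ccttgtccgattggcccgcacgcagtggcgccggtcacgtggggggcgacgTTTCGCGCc
RFC3, chr13:33818068-33818127, plus strand: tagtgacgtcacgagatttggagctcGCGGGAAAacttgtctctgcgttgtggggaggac

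These stretches show the letters 18 bases before the start in POLE, 137 in POLA1, 114 in LIG1, 9 in MCM7 and 55 in RFC3, counted from the first capital. Input of POLE was 8.92 FPKM with METTL16 plasmid and 10.3 with empty plasmid, of POLA1 3.60 FPKM with METTL16 plasmid and 4.01 with empty plasmid, and of LIG1 2.93 FPKM with METTL16 plasmid and 3.13 with empty plasmid. MCM7 had 40.3 FPKM with METTL16 plasmid and 41.6 with empty plasmid and RFC3 had 11.7 FPKM with METTL16 plasmid and 11.8 with empty plasmid, so the 5 changes ran from -0.19 to -0.01 on the log2 scale.

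Other genes of replication and repair, from a list of 141 outside the name families, were counted in the same way. Of these, 68 were listed, with 97 peaks, of which 43 were differential (44.3%, beside 43.7% of all listed peaks), 27 lower and 16 higher, and their median log2 fold change was -0.47. RRM2, the small subunit of ribonucleotide reductase, had -1.05 with an adjusted p of 6.40e-07 at its 3'UTR in the authors' deposited table, and 30.8 FPKM with METTL16 plasmid against 36.7 with empty plasmid. The other fork genes with the largest differential peaks were WDHD1, a fork adaptor, at -2.10, the helicase factor CDC45 at 1.36 and the primase PRIMPOL at -1.09 in the authors' deposited table. Checkpoint genes were the kinases CHEK2 at 1.95 and WEE1 at -1.71, UIMC1, a ubiquitin-binding partner of BRCA1, at -1.65 and MAD2L2, a shieldin and polymerase zeta subunit, at -1.64 per the authors' deposited table. Among cohesin and condensin partners, the cohesin regulators PDS5B and PDS5A had -3.73 and -1.02 and the condensin subunit NCAPD3 had 1.54 in the authors' deposited table. Excision, mismatch and end-joining genes were PMS1 at -2.82, the TFIIH subunit GTF2H3 at -2.75, the uracil glycosylase UNG at -2.56 and the nuclease gene DCLRE1C at -1.95 per the authors' deposited table. Recombination and crosslink genes were the helicase RTEL1 at -2.998, the nuclease subunit SLX1A at 2.43, the fork remodeller SMARCAL1 at 2.07 and the helicase BRIP1 at 1.73 in the authors' deposited table. SLX1A has a near-identical copy, so its reads are uncertain. Of these 19 genes, RRM2, CDC45, CHEK2, WEE1, GTF2H3, RTEL1 and SMARCAL1 have an adjusted p under 0.05 there. Of the 65 listed genes with at least 1 FPKM in either input, 45 had lower and 20 higher input levels. Their median log2 change was -0.07, beside -0.02 over all 5467 genes at that level, of which 57.9% were lower. By role the medians were -0.16 for replication fork and licensing genes, -0.10 for excision, mismatch and end-joining genes, -0.06 for recombination and for cohesin partners, and -0.05 for checkpoint genes.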

How the data were processed

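MeRIP-seq was done on BEAS-2B cells in 4 libraries, an input and an m6A immunoprecipitate in each of 2 arms. Per the labels' protocols, rRNA-depleted RNA was fragmented and made into libraries with dUTP strand marking. The submitters' processing notes name fastp 0.19.4 and genome build hg38, and no aligner, peak caller or annotation release is named in the sources read here. The authors deposited 1 table of their own comparison, with a log2 fold change, p-value and adjusted p-value per peak, and, per gene, input FPKM, the ratio (fold) with its log2, p-value and q-value. The peak length deposited counts genomic bases, introns included.

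Counts, medians and shares were computed from these values in Python 3.11.15 (pandas 2.3.3, scipy 1.17.1), with exact Clopper-Pearson intervals for shares and order-statistic intervals for medians, both at 95%, and the functions were tested on simulated data. Input change used a pseudocount of 1 and genes at 1 FPKM or more in either input, which understates changes of low genes. Since every group is 1 library, the conditions were compared without a test, and sequencing depth is unknown. The intervals cover the spread over peaks or genes and not that between libraries. Any gene of the name families may be named, in full where it has a differential peak, 3 or more peaks, 1 of the 5 smallest p-values or 1 of the 5 highest or lowest input changes, and other pathway genes, up to 4 a role, by the size of a differential peak at 1 FPKM or more in both inputs. Members, roles and lists were chosen with earlier results of these data known. The promoter letters, expression classes, 1.2-fold description and 2000-base limit were chosen after values were seen, and so was the final list of 3 name-only genes. Peak sequences, planned at first, were not analysed here, and the alternatives tried are given in the closing section. Values of some single genes are not reported here.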

Additional observations from a re-analysis of the deposited data

How the results depend on the processing

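The 53 differential peaks became 12 with an adjusted p under 0.05 as well, 4 higher and 8 lower, and 22 at a threshold of 4-fold, 10 higher and 12 lower. Centring on the median of all listed peaks gave 43, 22 higher and 21 lower, so that the lower share came to 48.8% against 62.3%, and the median log2 fold change came to -0.014. Of the 107 peaks, 18 lie between that median and 0 and change sign with the centring. The count was 51 of 104 without the 3 name-only genes and 45 of 98 at 1 FPKM or more in both inputs. Further alternatives were chosen after seeing the data. They gave 41 of 69 with spans of at most 2000 bases, 42 of 96 with an adjusted p given and 37 of 91 without intronic peaks. These counts stayed within 1.5 times of 53, but they come from fewer peaks. Their shares ran from 40.7% to 59.4%, beside 49.5% of the 107. The other 5 medians of m6A ran from -0.51 to -0.36, inside the interval of the reported one. Input medians ran from -0.09 to -0.06 under 5 alternatives, with -0.06 after centring on all genes, where 45 of 66 genes stayed below the median of all genes. No paired analysis was possible because each group holds 1 library. Depth is unknown, and the peaks without an adjusted p, 11 of 107, include the 2 extreme ones of RAD51D and MLH3. The others lie on ATR, BRCA1, ERCC4, FANCG, FANCL, PARP1, SMC5 and SMC6.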

Other observations

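Of the 107 peaks, 6 share genomic bases with a listed peak of another gene, each on the opposite strand. MSH6 at -0.62 shares 287 bases with FBXO11 at -0.54, FANCI at -0.23 lies within a peak of POLG, the mitochondrial DNA polymerase gene, at -0.37, and RAD9A at -0.44 holds a peak of the phosphatase gene PPP1CA at 0.28, in the authors' deposited table. The long spans of MCM9 at -0.82 and POLH at -0.33 hold peaks of the histone chaperone gene ASF1A at -0.66 and of an unnamed noncoding gene at -3.85, in the authors' deposited table. Whether reads of one strand entered the value of the other was not tested.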
